A study of Mus musculus with 2 samples.

Results

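Dlk1, Meg3 and Plagl1 are 3 imprinted genes, and they are described here across the cell clusters of salivary gland organoid stroma grown with and without FGF2. They were taken by name from the authors' cluster comparisons, where 5238 genes had an entry in at least 1 of 3 tables. The members held 20 of the 10368 entries of the control table, 13 of the 7725 entries of the FGF2 table and 8 of the 3703 entries of the table made after integrating both libraries. Cells came from salivary glands of CD-1 mice, an outbred stock, labelled embryonic day 16 with an added 7 whose meaning was not given. One library was made from control organoids (5023 cells captured per the labels) and 1 from organoids with FGF2 (10107 cells), a growth factor of mesenchymal cells. Both were tagged at the 3' end of transcripts in droplets on the 10x Chromium system. Dose and timing of FGF2, the culture and whether animals were pooled were not stated in the labels.

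An imprinted gene is transcribed mainly from the copy of a single parent, set by DNA methylation laid down in the germ line. Dlk1, expressed from the paternal copy, encodes a transmembrane protein with EGF-like repeats that is related to the Notch ligands and holds back the maturation of preadipocytes. Meg3, expressed from the maternal copy of the same imprinted region, is a long non-coding RNA. Plagl1, also called Zac1 and expressed from the paternal copy, encodes a zinc finger transcription factor that can arrest the cell cycle and acts on other imprinted genes. All are known for high levels in fetal tissues, mesenchyme among them.

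In GRCm38, the assembly of mm10, the GENCODE annotation places Dlk1 on the plus strand at chr12:109452823-109463336 and Meg3 on the same strand at chr12:109541001-109571726, 77.7 kb downstream of the end of Dlk1. Rian, a further maternally expressed non-coding RNA of this region, starts 32.2 kb beyond Meg3. Plagl1 lies on another chromosome, on the plus strand at chr10:13060504-13131694. Because the members had higher values together in 1 control cluster, the 250 bases before each start in RefSeq (GRCm38.p6) are shown, with capitals for matches to TGACGTCA (the cAMP response element), TATAAA and CACGTG (an E-box), searched on both strands. These motifs were picked after the sequences were seen. The windows are chr12:109452573-109452822 for Dlk1, chr12:109540746-109540995 for Meg3, whose more upstream of 2 starts was used, and chr10:13090582-13090831 for Plagl1, whose RefSeq start lies inside the span GENCODE gives the gene.
Dlk1: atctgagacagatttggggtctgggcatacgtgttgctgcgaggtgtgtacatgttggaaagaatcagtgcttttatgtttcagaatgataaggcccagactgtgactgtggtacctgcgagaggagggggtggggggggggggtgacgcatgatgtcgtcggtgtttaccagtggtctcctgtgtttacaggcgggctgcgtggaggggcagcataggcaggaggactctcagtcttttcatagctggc
Meg3: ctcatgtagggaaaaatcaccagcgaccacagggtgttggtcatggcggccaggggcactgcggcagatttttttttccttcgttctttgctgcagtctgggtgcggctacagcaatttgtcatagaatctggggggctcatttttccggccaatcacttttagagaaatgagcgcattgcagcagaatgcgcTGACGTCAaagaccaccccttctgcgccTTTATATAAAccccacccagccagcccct
Plagl1: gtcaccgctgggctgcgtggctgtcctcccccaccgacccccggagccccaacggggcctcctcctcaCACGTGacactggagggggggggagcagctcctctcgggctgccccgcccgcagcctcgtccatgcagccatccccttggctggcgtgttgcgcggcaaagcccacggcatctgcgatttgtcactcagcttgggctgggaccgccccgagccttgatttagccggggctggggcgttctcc

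The Meg3 window held TGACGTCA from 57 bases before its start and overlapping TATAAA matches on the minus strand from 29 and the plus strand from 25 bases before it. The Plagl1 window held CACGTG from 182 bases before its start, and the Dlk1 window held none of the motifs. Of 32851 windows of the same length in the table, 1.55% held TGACGTCA, 12.4% TATAAA and 6.02% CACGTG. CpG dinucleotides, the sites of DNA methylation, numbered 19 in the Plagl1 window, 10 in the Meg3 window and 8 in the Dlk1 window, against a median of 6. Such matches describe letters only, and no binding or methylation was measured here.

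All 10 fibroblast markers had a value in both libraries, which means an entry in some cluster. Their shares ran from 51.1% (Lum) to 93.2% (Col1a2) of control cells, and from 32.0% (Col3a1) to 94.4% (Prrx1) of FGF2 cells. Clusters with markers of epithelial, glial, blood or endothelial cells made up 5.85% of the control library and 4.47% of the FGF2 library. In control clusters 4 and 9 and FGF2 clusters 10, 13 and 16, together 13.4% and 5.23% of the cells, the listed genes had a median share under 20% while the other cells had over 50%. They are called low-share clusters below. The number of counts per cell was unknown, so no interval could be given. Each group was 1 library, so differences had no replicate check and were not tested.

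For a gene and a cluster, the library tables give the share of the cluster's cells with a count and that over all remaining cells. They also give the natural log of the ratio of the averages. From these ratios the average of a cluster was also expressed relative to that of its library, with 1 added to both averages, which is called its relative level (1 is the library average). A gene without an entry in a cluster differed there by less than 0.25 on the natural log scale or missed the authors' limits on share or p. The limit on p held before adjustment over genes. With an adjusted p under 0.05 in the authors' deposited tables, 3 of the members' 4 higher and 13 of their 16 lower control entries were left, 3 of 3 and 7 of 10 in the FGF2 library, and 2 of 2 and 5 of 6 after integration; those p-values treat cells as replicates. The entries that did not reach it are named below. The share over a whole library was recovered from the entries.

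Dlk1 was found in 47.9% of the control cells. In the authors' deposited table, control cluster 0, a fibroblast-like cluster led by Fbn2 and Vegfd, held Dlk1 in 69.6% of its cells against 43.5% of the other cells, with a log ratio of 0.61, the third largest among the 55 genes listed as higher there. Its relative level was 1.61. Cluster 12, a small cluster without a marker-based name led by Ccl2 and Mt1, followed in the authors' deposited table with 63.4% against 47.8% and a relative level of 1.44. The authors' deposited table listed lower Dlk1 in 7 control clusters. These included cluster 6, led by the matrix Gla protein gene Mgp, with Dlk1 in 39.0% of the cells against 48.6% (authors' deposited table) and a relative level of 0.68. The other 6 lay far lower in share: per the authors' deposited table, 19.2% in cluster 13 (epithelial-like with basal keratins), 6.7% in cluster 14 (endothelial-like), 5.5% in the low-share cluster 4 (led by AY036118, Gm42418 and Gm26917), 5.2% in cluster 10 (Schwann or glial-like), 2.1% in cluster 9 (epithelial-like, low-share) and 1.9% in cluster 11 (macrophage-like). Dlk1 was thus listed as lower in all 5 non-stromal control clusters, with relative levels from 0.47 to 0.62. The entries in clusters 12, 13 and 14 did not reach the adjusted p. The 6 clusters without an entry, among them the contractile clusters 3 and 5 and the fibroblast-like clusters 1 and 2, had a mean share of 54.5%.

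In the FGF2 library Dlk1 was found in 53.4% of the cells, and its shares were closer together. The authors' deposited table gave higher Dlk1 in cluster 2 alone, a fibroblast-like cluster led by Igfbp3 and Lpl, with 56.8% against 52.9% and a log ratio of 0.40. The relative level there was 1.42, while the shares differed by 3.9 points. The 11 clusters without a Dlk1 entry, among them the low-share clusters 10 and 13, had a mean share of 56.9%. By share, cluster 2 was thus not above these. Lower entries in the authors' deposited table came from clusters 1 (49.4%, led by Cck and Odc1), 7 (39.2%, led by Igfbp5 and Il11) and 8 (38.7%, led by Mgp and Pla1a). Mgp was thus the leading gene of a cluster with lower Dlk1 in each library, control 6 and FGF2 8. Of the non-stromal FGF2 clusters, the mast cell-like cluster 15 (20.3%) and the Schwann or glial-like cluster 16 (16.1%) had entries in the authors' deposited table, and the epithelial-like cluster 11 and cluster 14 had none. Neither entry reached the adjusted p. Leukocytes are not known for this gene, and Dlk1 was in 1.9% of the macrophage-like control cluster 11 and 20.3% of the mast cell-like FGF2 cluster 15 (authors' deposited table). How much free RNA contributed to these shares was not tested.

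Meg3 was the most widely detected member, in 86.4% of cells without and 92.6% with FGF2. Control cluster 0 again held the 1 higher entry, with 99.1% of its cells against 83.8% and a log ratio of 0.37 in the authors' deposited table. Its relative level was 1.35. The lowest levels were in the macrophage-like cluster 11, where Meg3 was in 24.5% of the cells against 87.0% with a log ratio of -1.68 per the authors' deposited table, the second largest in size among the 1008 genes listed as lower. Epithelial-like cluster 9 (12%), endothelial-like cluster 14 (33.3%) and Schwann or glial-like cluster 10 (69.0%) were also lower in the authors' deposited table. Relative levels were 0.19, 0.22, 0.21 and 0.31 in clusters 11, 9, 14 and 10. For comparison, those of Dlk1 and Plagl1 in the same clusters lay between 0.47 and 0.57, but with 1 added to each average the drop of a gene of low average is understated, so these sizes do not rank the genes.

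In mitotic clusters the average of Meg3 differed in a way that its share did not show. Control cluster 8, led by Cenpf and Mki67, held Meg3 in 97.5% of its cells against 85.8%, yet with a lower average (log ratio -0.48) in the authors' deposited table. FGF2 cluster 9, led by Top2a and Ube2c, showed the same in the authors' deposited table, with 95.5% against 92.5% and a log ratio of -0.37. Relative levels were 0.63 and 0.70. The other cells include the low-share clusters. Without those clusters, Meg3 was in 95.8% to 96.2% of FGF2 cells, so the share of FGF2 cluster 9 was not larger. The control bounds, 87.1% to 98.1%, leave this undecided for control cluster 8. Against all other cells, further imprinted genes had this combination of a larger share and a lower average. In control cluster 8 these were H19 (log ratio -0.40), Igf2 (-0.37) and Cdkn1c (-0.44) in the authors' deposited table. In FGF2 cluster 9 they were Igf2 (-0.31) and H19 (-0.26) in the authors' deposited table. The control cluster 7 of histone and replication genes had no Meg3 entry. It had the combination for Cdkn1c (log ratio -0.51) and Igf2 (-0.31) in the authors' deposited table. The combination was not particular to cycling clusters. Contractile control clusters 3 and 5 had it for H19 (-0.85 and -0.79) and Igf2 (-0.47 and -0.57) in the authors' deposited table.

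The opposite was seen in FGF2 cluster 10, a low-share cluster of 3.51% of the cells led by Gm42418, Xist and Malat1. Meg3 was in 38.7% of its cells against 94.6%, but its average was higher, with a log ratio of 0.51 in the authors' deposited table and a relative level of 1.62. This was not particular to Meg3 or its region. Rian (13.0% against 58.7%, log ratio 0.30), Kcnq1ot1 (17.8% against 66.7%, 0.28) and Peg3 (30.2% against 84.7%, 0.25), the latter pair from other regions, also had a smaller share and a higher average there in the authors' deposited table. The genes listed for this cluster had a median share of 14.4% against 70.8% in the other cells, and the part of that gap in the Meg3 value was not tested. The other low-share FGF2 cluster with a Meg3 entry, cluster 13 (led by Acta2 and Tagln), went the other way, with 12% against 93.7% and a log ratio of -2.0 in the authors' deposited table, and a relative level of 0.14. FGF2 cluster 2 was higher in Meg3 by the authors' deposited table (97.1% against 92.1%, relative level 1.34). Cluster 14, led by the neutrophil genes S100a9 and S100a8, and mast cell-like cluster 15 were lower there, at 50.8% and 28.1% of their cells (authors' deposited table). In cluster 14, Meg3 had the log ratio largest in size of the 477 genes listed as lower. The 11 FGF2 clusters without an entry had a mean share of 96.6%.

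Plagl1 was found in 66.9% of the control cells. Control cluster 0 held it in 90.7% of the cells against 62.1%, with a log ratio of 0.49 in the authors' deposited table and a relative level of 1.48. It was listed as lower in 4 control clusters of the authors' deposited table: epithelial-like cluster 9 (4.2%), glial-like cluster 10 (8.6%), macrophage-like cluster 11 (15.1%) and endothelial-like cluster 14 (20%). Relative levels there lay between 0.47 and 0.54, and the entry of cluster 14 did not reach the adjusted p. In the FGF2 library Plagl1 was found in 44.5% of the cells, and it had a single entry in the authors' deposited table, in glial-like cluster 16 (6.5% against 44.6%). This is a low-share cluster, and the entry did not reach the adjusted p. Its pattern among the stromal FGF2 clusters therefore had no value, and the 16 clusters without an entry had a mean share of 44.6%. Plagl1 in the glial-like clusters was at 8.6% in control and 6.5% in FGF2 (authors' deposited table).

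**Figure D1:**
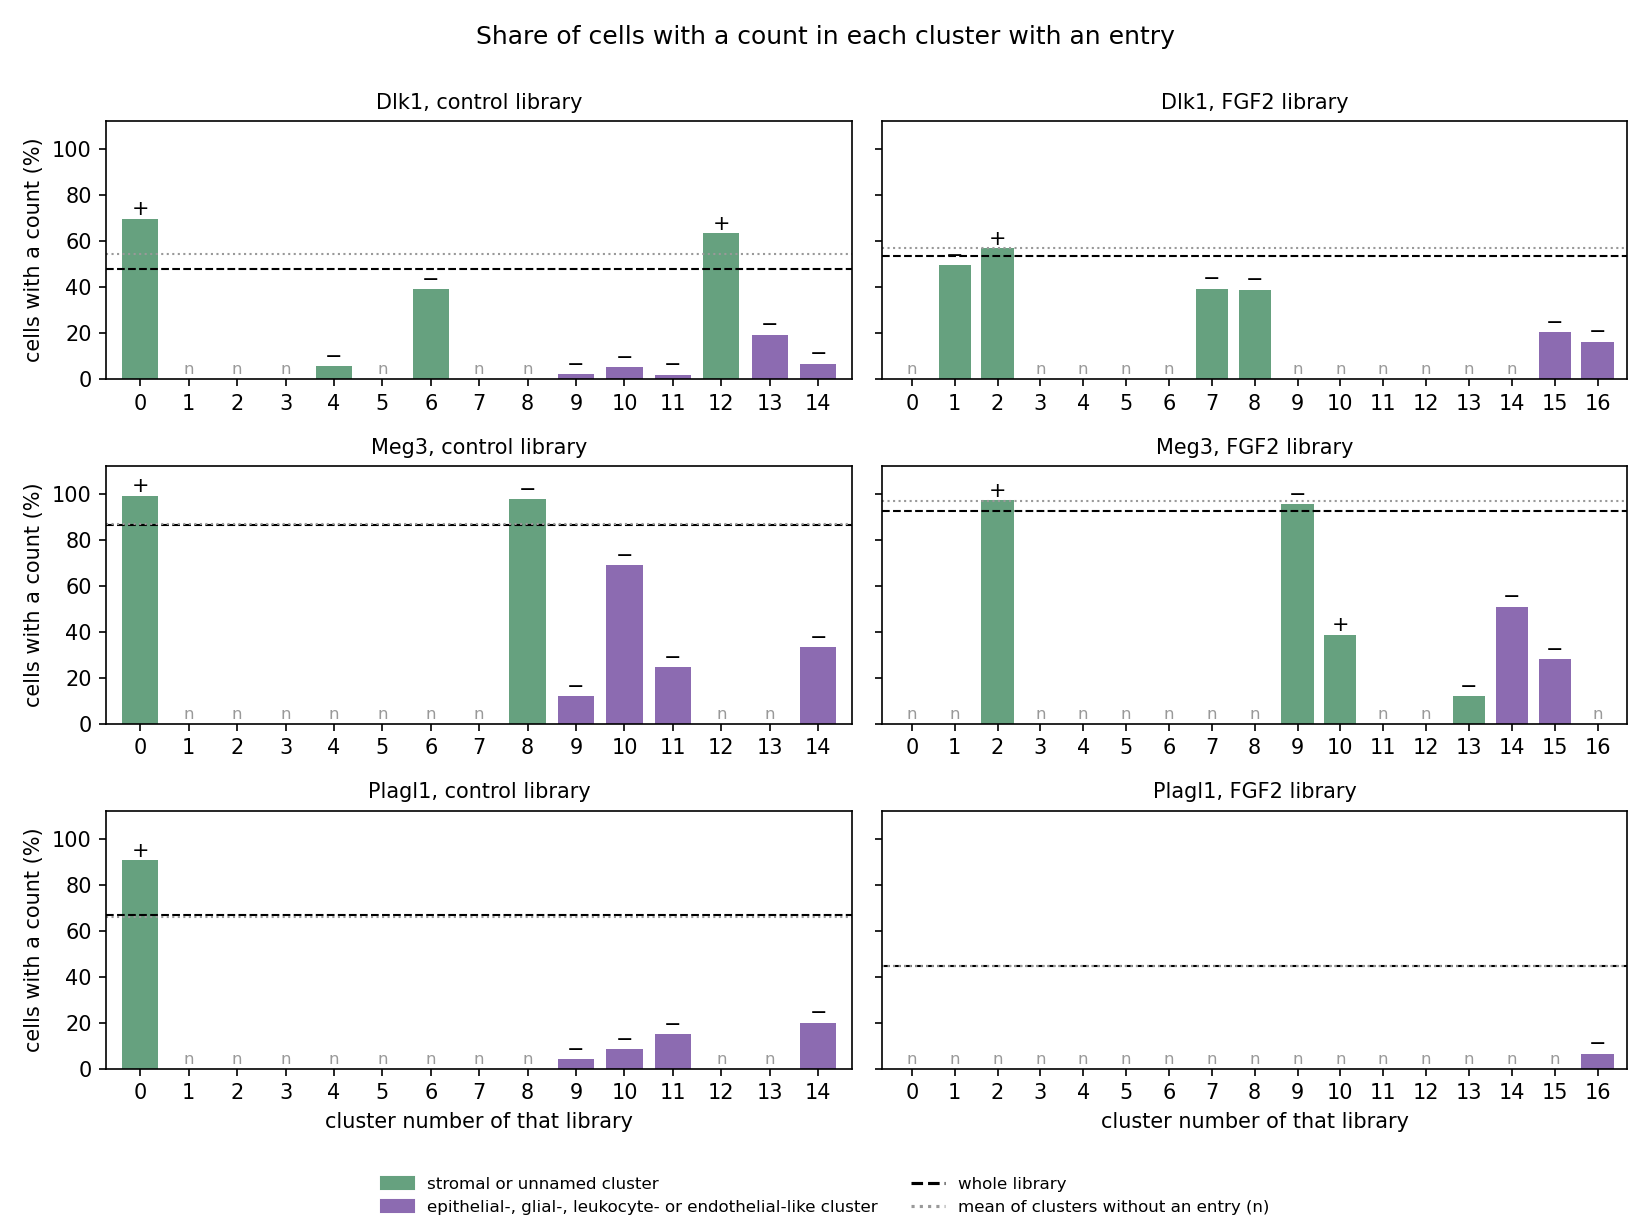
Percentage of cells with a count of Dlk1, Meg3 and Plagl1 (vertical axis) in each cluster (horizontal axis) of the control (left) and FGF2 library (right). Bars are clusters with an entry (purple for epithelial-, glial-, leukocyte- or endothelial-like clusters, green for the rest), + and − mark a higher or lower average, n marks a cluster without an entry, the dashed line is the whole library and the dotted line the mean of the clusters without an entry; control cluster 0 has a higher entry for all 3 genes.

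All 3 members were listed as higher in control cluster 0, where 0.288% of the 19070 genes tested by the authors were listed as higher. All 3 were listed as lower in control clusters 9, 10, 11 and 14, where 4.43%, 3.34%, 5.29% and 3.86% of the genes were. These backgrounds run over all genes tested, whatever their share of cells. The members were chosen with earlier results of these data known, so the backgrounds are a description and no measure of enrichment. In the FGF2 library, Dlk1 and Meg3 but not Plagl1 were listed as higher in cluster 2 (background 0.628%), Dlk1 and Meg3 were listed as lower in cluster 15 (5.1%), and Dlk1 and Plagl1 as lower in cluster 16 (4.54%). In control cluster 14 only Meg3 reached the adjusted p, in FGF2 cluster 15 only Meg3, and in FGF2 cluster 16 neither gene. No FGF2 cluster had an entry for all 3. Whether the members' patterns differed between the libraries was not tested.

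**Figure D2:**
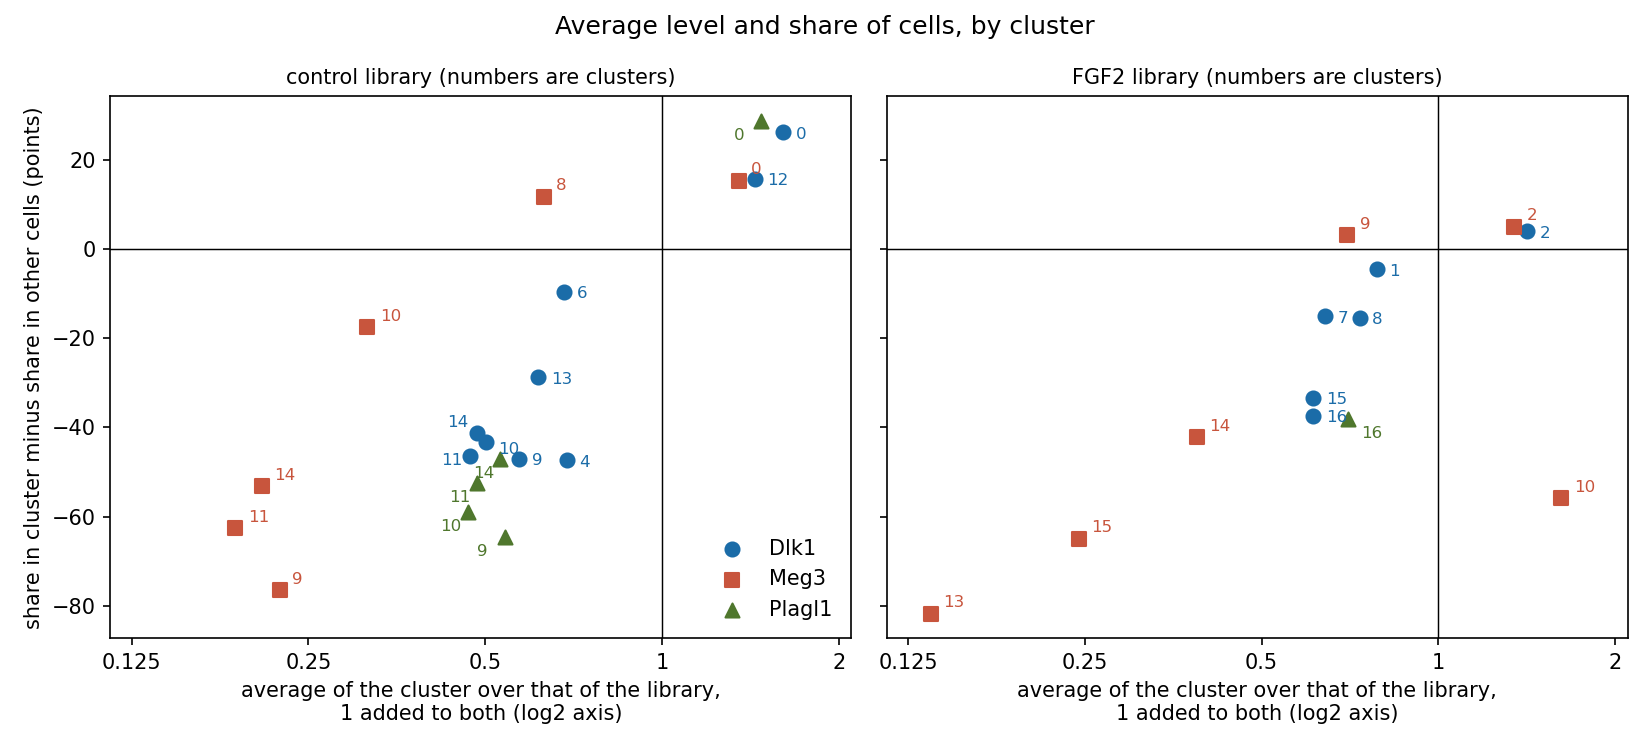
Relative level of the members (horizontal, log2 axis, average of the cluster over that of its library with 1 added to both) against the difference in share between the cluster and the other cells in percentage points (vertical), for each cluster with an entry in the control (left) and FGF2 library (right). Points in the upper left (Meg3 in control cluster 8 and FGF2 cluster 9) have a larger share than all other cells, low-share clusters included, but a lower average. The point in the lower right (Meg3 in FGF2 cluster 10) has the reverse.

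Between the libraries, the comparison asks whether the genes were found in more or fewer cells with FGF2. Plagl1 was lower in the FGF2 library, 44.5% against 66.9%, a log2 ratio of -0.59 that just passed the limit of 1.5-fold. Dlk1 (53.4% against 47.9%, log2 ratio 0.16) and Meg3 (92.6% against 86.4%, 0.10) lay within the limit, and from its control share Meg3 could not have been called higher. So 1 of 3 members was lower and 0 were higher, where 15.1% of the 2323 genes with a value in both libraries were lower and 7.53% higher. The call for Plagl1 was lost with 1 percentage point added to the shares (-0.58) and without the low-share clusters (between -0.88 and -0.47, since its share in the clusters without an entry is bounded, not known). Over the stromal clusters alone the ratio lay between -0.74 and -0.59. Without the low-share clusters, the Dlk1 ratio lay between -0.09 and 0.05.

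**Figure D3:**
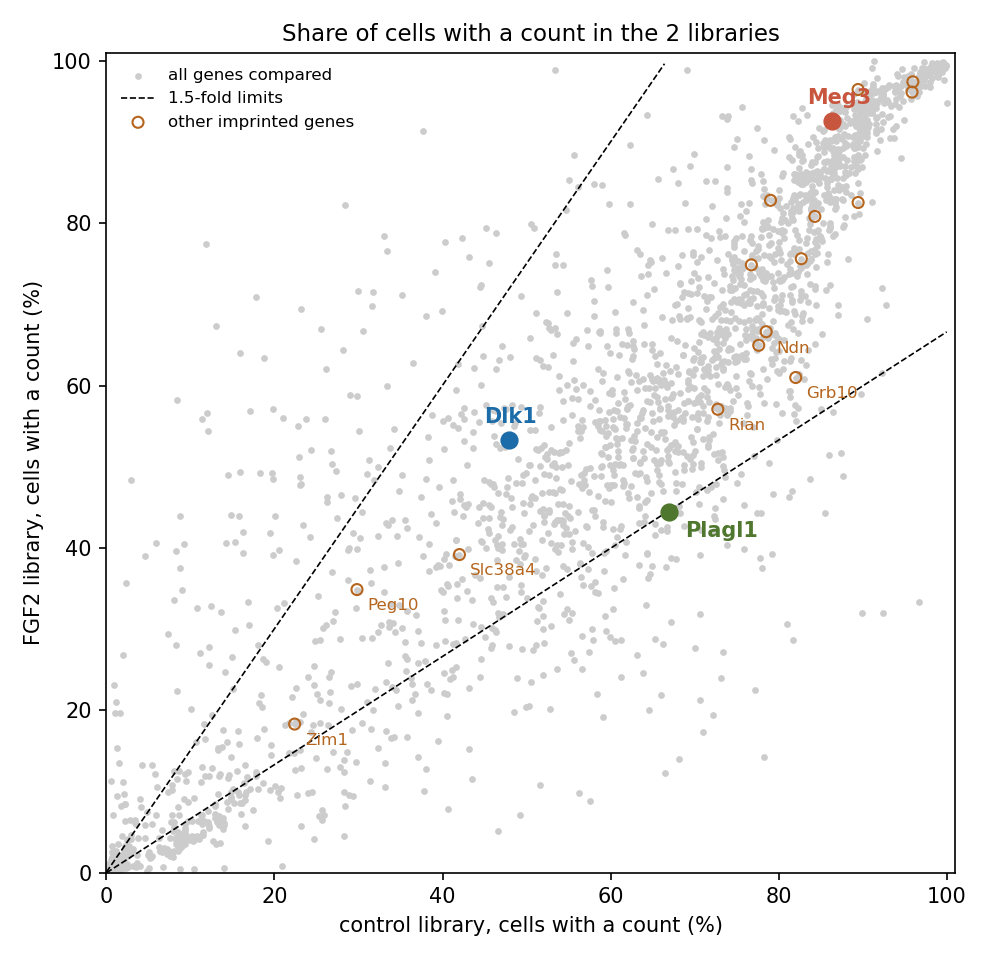
Percentage of cells with a count in the control (horizontal) and FGF2 library (vertical) for the 2323 genes with a value in both (grey), other imprinted genes (open circles) and Dlk1, Meg3 and Plagl1 (filled circles). Dashed lines are the 1.5-fold limits; Plagl1 sits on the lower line and the other imprinted genes lie between the lines.

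After integration the values are batch-integrated and their differences are not differences of expression. In the integrated table, percentages are of cells with a value above 0, not of cells with a count. Over all integrated cells that of Dlk1 was 66.4%, above its share in both libraries (47.9% and 53.4%). Meg3 had no entry in that table. For Dlk1 the authors' deposited table gave a higher value in integrated cluster 7, led by Ifitm1 and Lpl (80.5% against 65.8%), and lower ones in cluster 10, led by Mgp and Pmepa1 (76.1% against 66.2%, log ratio -0.53), mast cell-like cluster 11 (45.6%) and endothelial-like cluster 13 (34.4%). Mgp led integrated cluster 10, whose Dlk1 value was lower although more of its cells had one, but it also led integrated cluster 3, which had no Dlk1 entry. Plagl1 was higher in integrated cluster 2, a myofibroblast-like cluster led by Acta2 and Tagln, with 86.0% against 50.6% and a log ratio of 0.26 in the authors' deposited table. The contractile clusters of the library tables, control 3 and 5 and FGF2 4, had no Plagl1 entry. Lower Plagl1 values were given by the authors' deposited table for integrated clusters 11 (36.8%), 13 (25.0%) and the Schwann or glial-like cluster 12 (66.3% against 55.8%, log ratio -0.38), the last without reaching the adjusted p. This table was made from both libraries and is not independent of theirs.

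Other imprinted genes were set beside the members from a list of 56 symbols, of which 19 had an entry in a library table. Control cluster 0, the cluster of the members, listed 1 of the 18 with a control entry, Cdkn1c, a cell cycle inhibitor (95.5% against 82.0%, log ratio 0.35 in the authors' deposited table). No member had an entry in control clusters 1 and 2, which listed 8 and 7 of them as higher, but also listed 239 and 248 genes as higher in all, against 55 in cluster 0. Cdkn1c was among those of both clusters, with log ratios of 0.70 and 0.25 in the authors' deposited table. H19, the non-coding RNA next to Igf2, had log ratios of 0.86 in control cluster 1 and -0.85 and -0.79 in contractile clusters 3 and 5 in the authors' deposited table. Igf2, the fetal insulin-like growth factor, followed in the authors' deposited table with 0.69, -0.47 and -0.57. Peg3, a zinc finger gene, had its largest log ratio of 0.78 in control cluster 2 by the authors' deposited table. In the non-stromal clusters most entries of the list were lower, as those of the members were. Of the 18 genes, 15 were lower in macrophage-like cluster 11 and 9 each in the epithelial-like clusters 9 and 13. In clusters 10 and 14, 8 each were lower. Of all 4419 genes with a control entry, 1008, 844, 602, 637 and 737 were listed as lower there (clusters 11, 9, 13, 10 and 14). Other genes of the list went the other way in the authors' deposited table: Peg3 (log ratio 0.74) and Kcnq1ot1 (0.60) were higher in cluster 13, where Dlk1 was lower, Cd81 (0.73) and Sgce (0.33) in cluster 10, and Mest (1.34) in cluster 14. Kcnq1ot1 is antisense to Kcnq1, and whether counting used strand was not stated. Rian, the neighbour of Meg3, was lower in clusters 9, 10, 11 and 14 as Meg3 was, with 8.5%, 34.5%, 11.3% and 26.7% of the cells (authors' deposited table). Rian was also lower in cluster 13 (34.6% against 73.0%, log ratio -0.55 in the authors' deposited table), where Meg3 had no entry. It had no entry in cluster 0 or in cluster 8, where Meg3 was higher and lower.

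In the FGF2 library, cluster 2 listed 4 of 16 genes of the list as higher, together with Dlk1 and Meg3. These were Cdkn1c (log ratio 0.64), Igf2 (0.57), H19 (0.48) and Peg3 (0.31) in the authors' deposited table. Of all 3058 genes with an FGF2 entry, 126 were listed as higher there. The mast cell-like cluster 15 listed 12 of 16 as lower, and 1023 of the 3058. Cluster 7, low in Dlk1, listed H19 (-0.56), Igf2 (-0.43) and Grb10 (-0.33) as lower and Gnas (0.26) as higher in the authors' deposited table, and cluster 8 listed no gene of the list. Between the libraries, 15 genes of the list were compared and 0 were higher or lower by 1.5-fold (median log2 ratio -0.10, against -0.08 over all 2323 genes). The largest differences were Grb10, an adaptor that restrains insulin signalling (82.0% in control and 61.0% with FGF2, log2 ratio -0.43), and Rian (72.8% and 57.1%, -0.35). H19 was in 95.9% and 96.2% of the cells and Igf2 in 89.5% and 82.6%. Of the genes compared, only Slc38a4 (42.0% of control cells), Peg10 (29.8%) and Zim1 (22.4%) could have been called higher. All others were too common in control for a 1.5-fold rise.

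**Figure D4:**
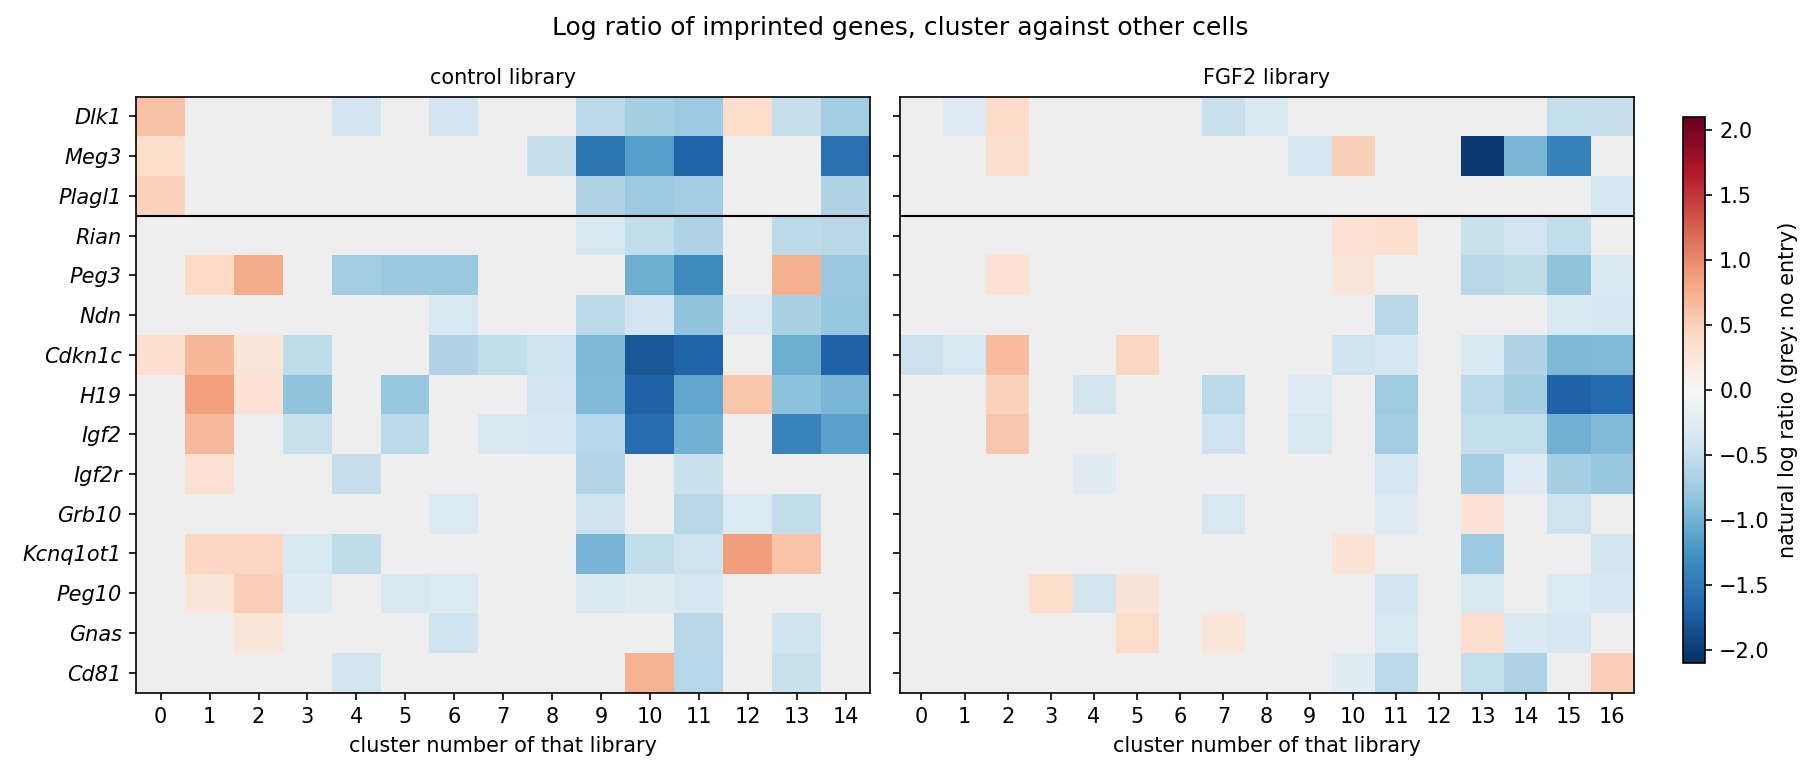
Natural log ratio of the average in a cluster over that in the other cells (colour; red higher, blue lower, grey no entry) for the members (above the line) and 12 other imprinted genes (rows), by cluster of the control (left) and FGF2 library (right). The members share control cluster 0 with Cdkn1c, which is also higher in control clusters 1 and 2. H19, Igf2 and Peg3 are higher in control clusters 1 or 2 but not in cluster 0.

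Genes with the most similar log ratios were sought by Pearson correlation over all clusters of a table, with 0 for a missing entry, among genes with entries in at least 5 clusters. In the control library (15 clusters, 603 candidates), Meg3 and Plagl1 were each other's most similar gene, with r = 0.94, and the same sign in all 5 clusters listed for both. Next to Meg3 came Rai14 (0.89), Ddr2, a collagen receptor (0.89), Rbms2 (0.88) and Gpc6, a cell surface proteoglycan (0.87). Plagl1 was followed by Ddr2 (0.88), Mfap4, a microfibril protein (0.87), Gpc3 (0.86) and Gas5, a non-coding RNA (0.85). Dlk1 was closest to Gpc3, a cell surface proteoglycan (0.91), Mfap4 (0.90), Pdgfrl (0.85), Plod2, which modifies collagen lysines (0.84), and Plagl1 (0.84), and its r with Meg3 was 0.76. All clusters share a library and its depth, and shared zeros raise r. Over the 9 stromal clusters without low shares, r was 0.67 for Meg3 with Plagl1, 0.72 for Dlk1 with Plagl1 and 0.48 for Dlk1 with Meg3. Cluster 0 was the only one of these 9 with an entry for more than 1 member.

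The FGF2 library gave other neighbours over 17 clusters and 474 candidates. Meg3 was closest to Mir100hg, a non-coding RNA (0.96), Peg3 (0.89), Ank3 (0.88), Rian (0.87) and Fgfr1, an FGF receptor (0.83). Dlk1 was closest to Tinagl1 (0.73), Mndal (0.70), Mpzl2 (0.70), Osr1, a mesenchymal transcription factor (0.69), and H19 (0.68), and its r with Meg3 was 0.19. Without the low-share and non-stromal clusters, 1 of the 5 genes was found again for Meg3 and 1 of 5 for Dlk1. For Plagl1, with 1 entry, the rule returned Fth1 (0.85), Nupr1 (0.82), Ifitm2 (0.82), Ly6e (0.78) and Gapdh (0.68), values that rest on cluster 16 alone.

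Genes of processes tied to the members were followed from fixed lists. Of 23 Notch pathway symbols, 13 had a control entry, 2 an FGF2 entry and 2 a value in both. Hes1, a Notch target, was lower in the FGF2 library (29.0% against 45.02%, log2 ratio -0.63). Rbpj, the DNA-binding partner of Notch, lay within the limit (90.2% against 78.3%). From its control share Rbpj could not have been called higher. Notch1 had a value in the control library alone (17.9% of cells), as had Dlk2, the relative of Dlk1 (3.48%). Of 20 adipocyte differentiation symbols, 7 were compared, 2 were lower and 0 higher (median log2 ratio -0.03), where 15.1% of all genes compared were lower and 7.53% higher (median -0.08). The lower ones were Lpl, lipoprotein lipase (44.3% against 85.5%), and Ebf1 (47.9% against 72.6%), while Cebpb, an early factor of the programme, was at 94.0% against 86.8%. Of these 7, only Sox9 (23.1% of control cells), Plin2 (63.6%) and Klf4 (47.5%) could have been called higher. Among 20 growth and cell cycle exit symbols, 11 were compared, with 2 higher and 2 lower (median 0.01), beside the same 7.53% higher and 15.1% lower over all genes. Cdkn2b, a cell cycle inhibitor, just passed the limit (84.4% against 56.1%, log2 ratio 0.59), as Igfbp5 did clearly (44.1% against 14.9%, 1.56). Igfbp2 (4.16% against 24.7%, -2.54) and Igfbp3 (49.1% against 75.5%, -0.62) were lower. Cdkn1a, the inhibitor induced by p53, was at 84.9% against 58.0%, within the limit, and Cdkn1c at 80.9% against 84.3%. Of the genes compared, only Cdkn1a, Cdkn2b, Igfbp2, Igfbp5 and Igfbp6 (47.1% of control cells) could have been called higher.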

How the data were processed

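Single-cell RNA libraries of 1 control and 1 FGF2 sample were used. The submitters' processing notes name Cell Ranger 4.0 and mm10. How cells were filtered, doublets treated, values normalized, clusters made and p-values computed is not given in the sources used here. Cell barcodes were not analysed here. Per the file headers, the authors' deposited tables hold the natural log ratio of averages (cluster over other cells), 2 fractions of cells with a value above 0 (printed as percent) and p-values. The p-values come from cells, not replicates, and are not printed. The log base was checked on genes with no positive cell in several clusters (median coefficient of variation 0.00169% with the natural log, 0.0488% with base 2, over 8 control genes). Each table was tied to a library by the FGF2 wording it shares with the sample labels.

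In control, 4419 of 19070 genes tested were listed, and 3058 of 20056 with FGF2. Every entry had a log ratio 0.25 or more from 0 and a p-value below 0.01 before adjustment. The number tested was read from the ratio of adjusted to unadjusted p-values. Each cluster's part of all cells was fitted by least squares over genes with entries in 2 or more clusters (2077 in control, 1490 with FGF2), and a gene's library share follows from it. On tables made with known answers, library shares were recovered to within 0.0513 (control) and 0.0514 (FGF2) points. Shares were compared as ratios after adding 0.1 points, with a limit of 1.5-fold. Clusters were named "like" a cell type from the type with the most markers among their higher genes, at least 3; the low-share control cluster 4 and FGF2 clusters 13 and 14 are given by their leading genes instead. Named genes are the members, the 5 most similar per member and library, and examples from fixed lists, picked from the lists after their values were seen. The members and lists were chosen with earlier results of these data known. Alternatives changed the added share, the limit, the fit, the clusters included, the listing limits and the measure of similarity. Python 3.11.15, numpy 2.4.6, pandas 2.3.3, scipy 1.17.1 and matplotlib 3.10.9 were used.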

Additional observations from a re-analysis of the deposited data

How the results depend on the processing

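The main limits are 1 library per group, an unknown depth per cell, and tables that list only genes past the authors' limits, so a missing entry is not a zero. The lower call of Plagl1 (log2 ratio -0.59) was lost with 1 point added to the shares (-0.58), with a limit of 2-fold (-0.59 itself) and without the low-share clusters at the bound nearest to no difference (-0.47). It was kept with no added share, with a limit looser than 1.5-fold, with parts fitted on genes in at least 4 clusters and over stromal clusters alone. Dlk1 and Meg3 stayed within the limit in every one of these settings. Counts of genes higher and lower with FGF2, 175 and 351, were 97 and 174 at 2-fold and 269 and 606 at the looser limit, and within 1.5 times the first values otherwise, also with a share of at least 0.5% in 1 library, an alternative chosen after seeing the data (173 and 351). With a log ratio of at least 0.5, higher entries of the members went from 4 to 1 (control), 3 to 1 (FGF2) and 2 to 0 (integrated), and lower ones from 10 to 3 (FGF2) and 6 to 3 (integrated). Without the low-share and non-stromal clusters, 6 of the 15 most similar control genes and 2 of 10 FGF2 genes were found again, and Plagl1 in FGF2 gave no value. With Spearman correlation over at least 8 shared clusters, possible for Dlk1 in control alone, 1 of 5 was. By relative level instead of share, 18 of 40 entries kept their place in the order of the clusters. The causes of these changes were not tested.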

Other observations

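Share and average went opposite ways in 14.3% of all control entries, 11.5% of FGF2 entries and 19% of integrated entries. Among the members this held for 1 of 20, 2 of 13 and 2 of 8 entries. Rian, the non-coding RNA downstream of Meg3, also did so in the epithelial-like FGF2 cluster 11, with 38.8% of the cells against 57.6% and a log ratio of 0.35 in the authors' deposited table, while Dlk1, Meg3 and Plagl1 had no entry there. The endothelial-like control cluster 14 listed Mest, an imprinted gene of the hydrolase family, as higher (60% against 24.0%, log ratio 1.34). So did the endothelial-like integrated cluster 13 (65.6% against 21.3% of cells with an integrated value above 0, 1.54), both in the authors' deposited table. Whether these clusters hold the same cells was not analysed here.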
